A study of Malus domestica with 6 samples.

Results

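The genes that lead from chalcone to a glycosylated anthocyanin, 6 of the 52311 gene IDs in the deposited tables, were followed step by step in the flesh of apple (Malus domestica) cv. 'R201'. They were taken by ID, as 1 chalcone isomerase (CHI, MD07G1233400, chromosome 7), 2 flavanone 3-hydroxylases (F3H, MD15G1246200 on chromosome 15 and MD02G1132200 on chromosome 2), 1 dihydroflavonol reductase (DFR, MD15G1024100, chromosome 15), 1 leucoanthocyanidin dioxygenase (LDOX, MD06G1071600, chromosome 6) and 1 gene described as UDP-glucosyl transferase 78D2 (UGT78D2, MD07G1306900, chromosome 7). All 6 came from the study's list of genes called different between red and white flesh on these same libraries, and for CHI and LDOX other genes of like description are not among the 6. Their difference between flesh types is therefore a description here and carries no test. All 6 passed the filter on low counts, as did 28610 IDs in all.

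Messenger RNA was sequenced from untreated mesocarp, the edible flesh, in 3 libraries of red flesh (RF) and 3 of white flesh (WF), lettered A to C, at 84 days after full bloom. This is the stage at which fully red fruits of this cultivar turn into unevenly coloured ones. Per the labels, RF and WF share their fruits, and the letters are semi-biological replicates, taken from different trees of 1 cultivar. Per the study RF was the outer and WF the inner flesh, so colour and position in the fruit cannot be told apart. Library totals were 25536185 to 26050906 estimated reads.

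Anthocyanins are red to blue flavonoid pigments that are stored in the vacuole. Chalcone synthase joins the first precursors into a chalcone. CHI closes the chalcone into a flavanone, F3H hydroxylates it to a dihydroflavonol, DFR reduces that to a leucoanthocyanidin, and LDOX, also called anthocyanidin synthase, oxidises it to the coloured anthocyanidin. A glycosyltransferase then adds a sugar, which makes the pigment stable. In Arabidopsis, UGT78D2 is a flavonoid glucosyltransferase of this last kind, whereas the main anthocyanin of apple carries galactose. In apple the late genes of the pathway are switched on by MYB10 together with a bHLH and a WD40 protein.

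All 6 genes were higher in RF than in WF in each of the 3 pairs of libraries with the same letter. The excess was smallest at the first step, CHI, at 1.69 to 1.81 times the WF level, and largest at the last, UGT78D2, at 5.03 to 8.79 times. Levels are given as TPM, which divide reads by a transcript's effective length and by library depth, so that different genes can be set side by side. For each of the 6 genes every RF library lay above every WF library in TPM, which was also the case for 15.1% of all tested genes. By edgeR's quasi-likelihood test at an adjusted p under 0.05, 6 of 6 were called higher, against 6.08% of all tested genes. Nothing is read from either count, since the genes were picked from calls on this contrast. With letter added to the edgeR fit (replicate block), 2981 of all tested genes were higher in place of 1740, without WF replicate B 939 and without RF replicate A 941, and the 6 genes stayed among them in all these fits. With robust dispersion estimation 5 of the 6 were called, and UGT78D2 was not (edgeR adjusted p = 0.071).

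**Figure D1:**
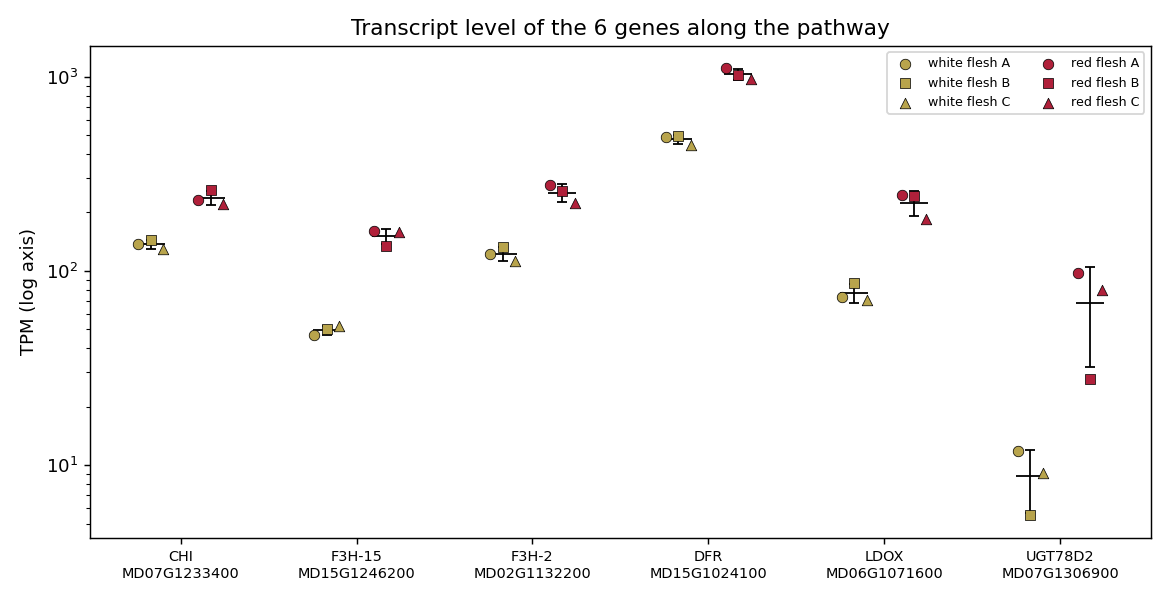
TPM (log axis) of each gene in the 6 libraries, in pathway order from CHI to UGT78D2, with F3H-15 and F3H-2 standing for the F3H genes of chromosomes 15 and 2. Points are libraries (circles A, squares B, triangles C), horizontal marks are means and bars are SD over 3 libraries. DFR was the highest gene in both flesh types, and UGT78D2 was the lowest and the most spread, at 5.50 to 11.8 TPM in WF and 27.7 to 97.1 TPM in RF.

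CHI MD07G1233400, which forms the flavanone, had 138.0, 144.5 and 129.9 TPM in WF libraries A, B and C and 233.2, 261.0 and 222.2 TPM in RF libraries A, B and C. Library B was the highest and C the lowest in both flesh types. The groups did not overlap, and the log2 fold change from edgeR was 0.80 (SE 0.07). The RF to WF ratio of TPM was 1.69, 1.81 and 1.71 in pairs A, B and C, the narrowest range of the 6 genes.

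The F3H genes form the dihydroflavonol and carry the same description. F3H MD02G1132200 had 122.2, 132.4 and 112.5 TPM in WF libraries A, B and C and 276.2, 258.1 and 223.6 TPM in RF libraries A, B and C. Its ratio was 2.26, 1.95 and 1.99 in pairs A, B and C, with a log2 fold change of 1.05 (SE 0.09) from edgeR. F3H MD15G1246200 was the lower of the pair in every library, with 46.8, 50.2 and 51.8 TPM in WF and 160.5, 134.8 and 157.8 TPM in RF. The excess in RF was larger for this copy, at 3.43, 2.68 and 3.05 times WF in pairs A, B and C and a log2 fold change of 1.61 (SE 0.08) from edgeR. Its share of the summed F3H TPM was 27.7%, 27.5% and 31.5% in WF libraries A, B and C and 36.8%, 34.3% and 41.4% in RF libraries A, B and C. The chromosome 2 copy still made up the larger part in RF, at 58.6% to 65.7%.

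DFR MD15G1024100, named MdDFR by the study, was the most abundant of the 6 genes in every library. It had 487.3, 497.5 and 447.1 TPM in WF libraries A, B and C and 1106, 1020 and 970.7 TPM in RF libraries A, B and C. By TPM it ranked 184 to 216 among all gene IDs in WF and 54 to 69 in RF. Its ratio was 2.27, 2.05 and 2.17 in pairs A, B and C, close to that of the chromosome 2 F3H, and the log2 fold change from edgeR was 1.11 (SE 0.08).

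LDOX MD06G1071600, which forms the coloured anthocyanidin, had 73.3, 86.8 and 70.5 TPM in WF libraries A, B and C and 245.4, 242.5 and 185.9 TPM in RF libraries A, B and C. RF library C was the lowest of its group, yet 2.14 times the highest WF library. The ratio was 3.35, 2.80 and 2.64 in pairs A, B and C, and the log2 fold change from edgeR was 1.55 (SE 0.11). In pairs A and C it lay below that of the chromosome 15 F3H, and in pair B above it.

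UGT78D2 MD07G1306900 had 11.8, 5.50 and 9.08 TPM in WF libraries A, B and C and 97.1, 27.7 and 79.8 TPM in RF libraries A, B and C. Library B was the lowest in both flesh types, and the groups did not overlap, with the lowest RF library 2.35 times the highest WF library. The WF values rest on 409, 190 and 319 estimated reads and the RF values on 3294, 941 and 2774. From a level that 44.7% to 64.0% of tested genes exceeded in WF, it stood where 6.34% to 23.8% of tested genes exceeded it in RF. The ratio was 8.24, 5.03 and 8.79 in pairs A, B and C, the largest of the 6 genes in every pair. The log2 fold change from edgeR was 2.96 (SE 0.41), the 27th largest of the 28610 tested genes.

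**Figure D2:**
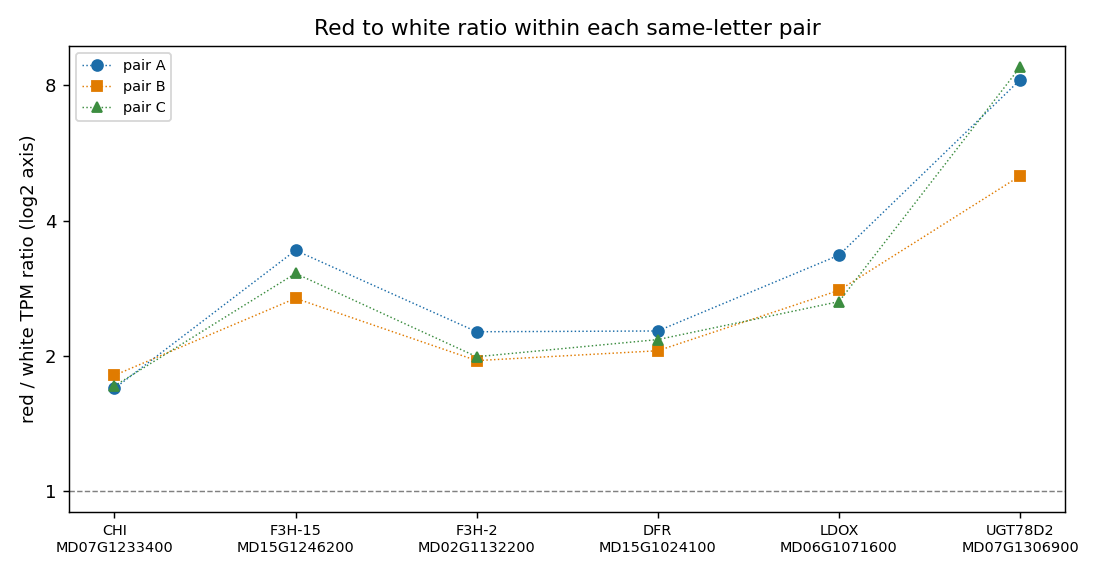
Ratio of RF to WF TPM (log2 axis) within each pair of libraries of the same letter, for the 6 genes in pathway order. Dotted lines join the points of 1 pair, and the dashed line marks a ratio of 1. CHI had the smallest and UGT78D2 the largest ratio in all 3 pairs, and both DFR and the chromosome 2 F3H lay between 1.95 and 2.27.

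Within each pair the genes kept almost the same order of ratio. CHI, the chromosome 2 F3H, DFR and UGT78D2 took the same places in all 3 pairs, and only LDOX and the chromosome 15 F3H changed places. Set against CHI in the same pair, the ratio of UGT78D2 was 4.88, 2.78 and 5.14 times as large in pairs A, B and C, that of LDOX 1.98, 1.55 and 1.54 times, and that of DFR 1.34, 1.14 and 1.27 times. The order did not follow the pathway, since the chromosome 15 F3H of the second step stood above DFR of the third step in every pair. In absolute terms DFR gained most, at 618.4, 522.6 and 523.6 TPM in pairs A, B and C, and UGT78D2 gained 85.3, 22.2 and 70.7 TPM.

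Summed over both F3H genes and the 4 others, the 5 steps had 820.8 to 916.9 TPM in WF and 1840 to 2118 TPM in RF. DFR alone made up 54.7 ± 0.61% of this sum in WF and 52.5 ± 0.28% in RF (SD, n = 3). The share of the F3H step was 19.7 ± 0.43% and 20.5 ± 0.27%. CHI made up 15.8 ± 0.06% in WF and 12.2 ± 1.21% in RF, LDOX 8.79 ± 0.59% and 11.4 ± 1.20%, and UGT78D2 1.02 ± 0.38% and 3.45 ± 1.76%. The RF and WF ranges did not overlap for any of these 5 shares. In RF library B, UGT78D2 was at 1.42%, against a highest WF share of 1.34%.

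**Figure D3:**
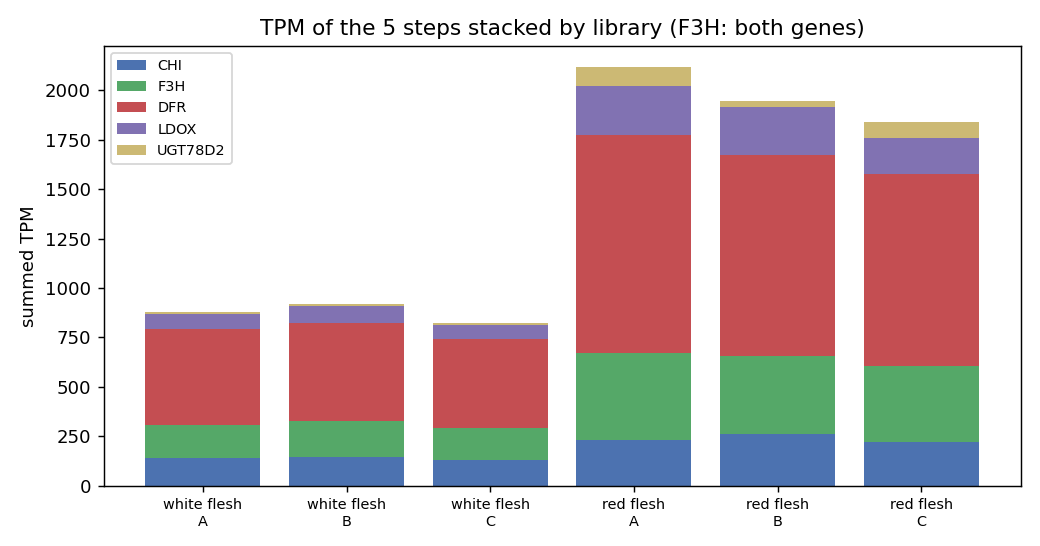
Summed TPM of the 5 steps in each library, with both F3H genes added together. Each bar is 1 library and each colour a step. Bars reach 820.8 to 916.9 TPM in WF and 1840 to 2118 TPM in RF, and DFR is the tallest segment in all 6 libraries.

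Going from each step to the next, TPM was higher up to DFR and lower from there on. F3H stood at 1.25 ± 0.02 times CHI in WF and 1.70 ± 0.19 times CHI in RF (SD, n = 3). DFR stood at 2.78 ± 0.09 times F3H in WF and 2.56 ± 0.03 times in RF. DFR in turn was 5.73 to 6.65 times LDOX in WF and 4.21 to 5.22 times in RF. LDOX exceeded UGT78D2 by 6.21 to 15.8 times in WF and 2.33 to 8.76 times in RF, and these ranges overlapped. The highest value of each came from library B, so the step to UGT78D2 differed between letters as well as between flesh types.

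By mean TPM the order in WF was DFR, CHI, the chromosome 2 F3H, LDOX, the chromosome 15 F3H and UGT78D2. In WF only CHI and the chromosome 2 F3H had ranges that overlapped, although CHI was higher within each of the 3 libraries, by 1.09 to 1.15 times. In RF the order was DFR, the chromosome 2 F3H, CHI, LDOX, the chromosome 15 F3H and UGT78D2. There the ranges of the chromosome 2 F3H, CHI and LDOX overlapped, and CHI was out of this order with each of its neighbours in 1 of 3 libraries. LDOX was below the chromosome 2 F3H within each of the 3 libraries of RF, as it was in WF.

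The spread between libraries of 1 flesh type set UGT78D2 apart from the other 5 genes. The p-values by which the genes were chosen also depend on this spread, so it is given as a description. Its coefficient of variation in TPM was 35.9% in WF and 53.0% in RF, against 5.13% to 11.3% in WF and 6.62% to 14.9% in RF for the others. The biological coefficient of variation fitted by edgeR was 31.5% for UGT78D2 and 6.58% to 9.77% for the others. Of all tested genes, 0.643% had a larger fitted dispersion than UGT78D2, and 39.8% to 74.4% a larger one than the other 5 genes. These dispersions come from the fit without letter. With letter in the fit (replicate block), the SE of the UGT78D2 log2 fold change was 0.11 in place of 0.41, at a log2 fold change of 2.90. On the log2(CPM + 1) scale, where CPM is the count scaled to library size with TMM factors, UGT78D2 in library B lay 0.56 below its WF mean and 1.12 below its RF mean. CHI in library B lay above the mean of its flesh type both times, by 0.07 and 0.12.

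**Figure D4:**
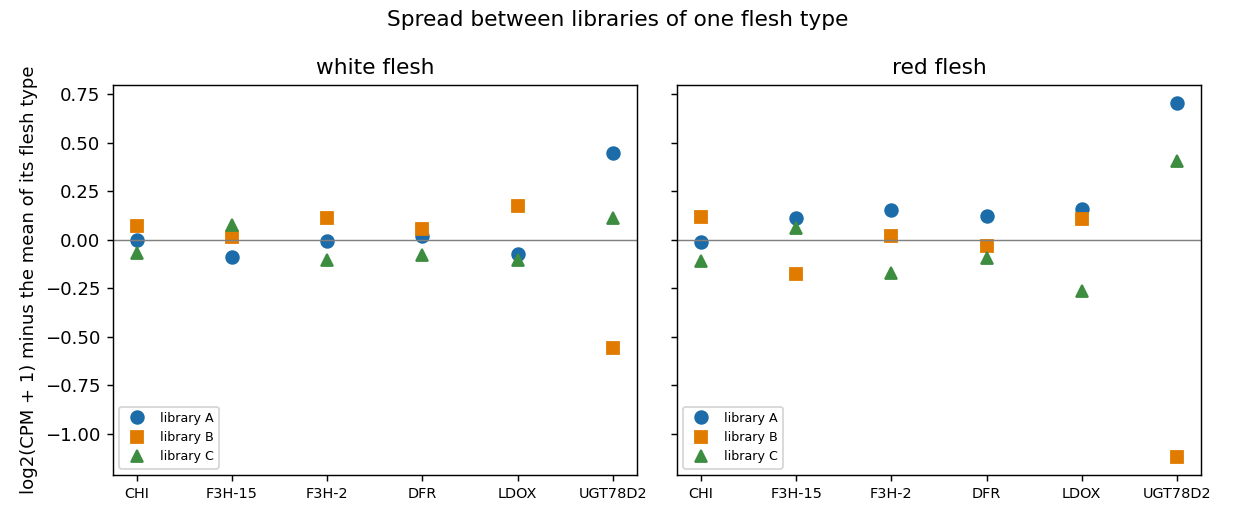
Deviation of log2(CPM + 1) of each gene from the mean of its flesh type, for WF (left) and RF (right), with 1 point per library and gene. The first 5 genes lie within 0.27 of 0 in all libraries. UGT78D2 spreads from -0.56 to 0.45 in WF and from -1.12 to 0.71 in RF, with library B lowest and library A highest both times.

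Marker lists of other tissue types were compared beside these values, again from described genes and so mostly from the study's calls. Over all tested genes 6.08% were called higher and 4.68% lower in RF. Nothing is read from the counts of calls in these lists. Of 25 genes of photosynthesis, which mark green tissue, 22 were called higher and 0 lower in RF. Their summed TPM was 1627 to 1908 in WF and 2786 to 2816 in RF. The most abundant, MD13G1200600, weighed most in this sum, at means of 815.7 TPM in WF and 1359 TPM in RF. MD10G1265400 had means of 179.8 TPM in WF and 152.3 TPM in RF and was not called (edgeR adjusted p = 0.0546). Of 6 genes listed for cuticle and epidermis by words in their descriptions, 4 were higher and 1 lower. Their sums were 333.4 to 372.8 TPM in WF and 363.0 to 480.3 TPM in RF. Of 5 genes named for xylem or phloem 3 were higher and 2 lower, with sums of 854.4 to 1027 TPM in WF and 1264 to 1446 TPM in RF. Most of this sum was 1 gene, MD05G1300100, at means of 873.1 TPM in WF and 1270 TPM in RF. The 2 called lower were MD05G1254200 (log2 fold change -0.36) and MD08G1023300 (log2 fold change -0.485). No gene of these lists was at 0 in all RF libraries. Lipid transfer protein 4 (MD12G1187100) of the epidermis list had 0.71, 1.49 and 2.01 TPM in WF libraries A, B and C and 29.2, 11.5 and 11.7 TPM in RF libraries A, B and C. It was chosen as the gene with the largest change of its list, and the most abundant genes of the list changed far less. MD04G1087300, at a mean of 214.9 TPM in WF, had a log2 fold change of 0.33 and was not called (edgeR adjusted p = 0.0691). MD11G1011100, at a mean of 119.1 TPM in WF, had a log2 fold change of -0.30 and was the gene called lower. Both make up most of the list's sum and are described only as bifunctional inhibitor/lipid-transfer superfamily proteins, which names no tissue. Whether that sum follows epidermis was not tested. In libraries A, B and C the cuticle and epidermis sum was 372.8, 361.9 and 333.4 TPM in WF and 480.3, 363.0 and 409.3 TPM in RF. The green tissue sum was 1723, 1627 and 1908 TPM in WF libraries A, B and C and 2815, 2816 and 2786 TPM in RF libraries A, B and C. Library B, in which UGT78D2 was lowest, thus had the lowest cuticle and epidermis sum in RF only, and the lowest green tissue sum in WF only. The part of other tissue in the 6 genes' values was not tested, and in whole flesh fewer cells of a type and less RNA per cell cannot be told apart.

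The other described genes of the same enzymes put the members in context. CHI MD07G1233400 was 1 of 5 genes described as chalcone isomerases or as members of the chalcone-flavanone isomerase family, and held 18.9% to 19.6% of their summed TPM in WF and 18.5% to 18.9% in RF. The most abundant was MD01G1167300 (chromosome 1), at 427.5 ± 27.8 TPM in WF and 710.3 ± 62.5 TPM in RF (SD, n = 3). MD07G1186300, also on chromosome 7, was level with the member in WF, at 138.8 ± 18.9 TPM, and above it in RF, at 304.8 TPM on average (270.4 to 325.4). All 4 of these other genes were called higher by edgeR, with log2 fold changes of 0.59 to 1.14 and a median of 0.69, against a median of 0.00 over all tested genes.

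LDOX MD06G1071600 was the larger of 2 genes of its description. The other, MD03G1001100 (chromosome 3), was at 37.0 ± 7.30 TPM in WF and 70.02 ± 15.2 TPM in RF (SD, n = 3). Its edgeR log2 fold change was 0.92 with an SE of 0.15. The member's share of their sum was 65.8% to 70.2% in WF and 74.0% to 77.8% in RF, without overlap. In both F3H and LDOX the gene with the larger RF excess took a larger share in RF, which must follow in a sum of 2 genes. The share of CHI MD07G1233400 was slightly lower in RF.

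**Figure D5:**
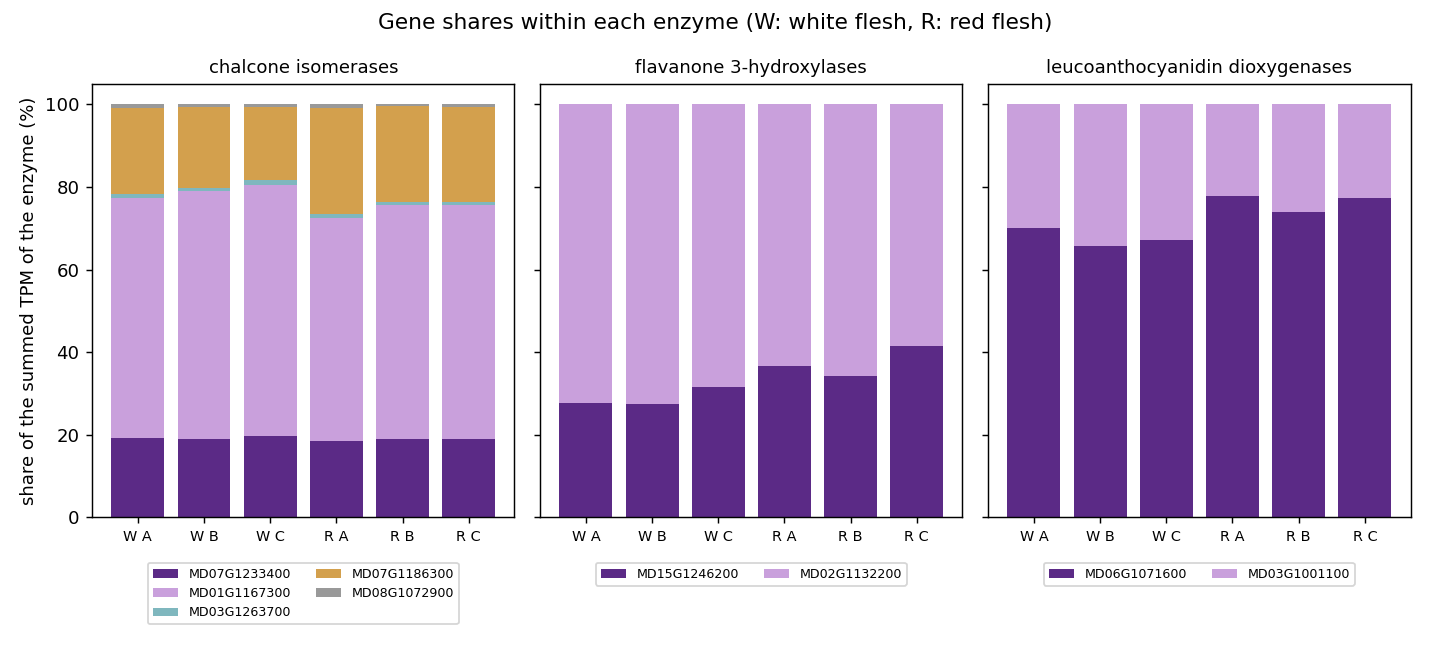
Share of each gene in the summed TPM of its enzyme or family in the 6 libraries (W for white flesh, R for red flesh). Shown are 5 genes of the chalcone-flavanone isomerase family, 2 flavanone 3-hydroxylases and 2 leucoanthocyanidin dioxygenases. The dark segment at the base is MD07G1233400, MD15G1246200 or MD06G1071600. It stayed at 18.5% to 19.6% in the first panel, and was higher in all RF than in all WF libraries in the other panels.

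With the described genes of chalcone synthase, CHI, F3H and LDOX or their family added up, the profile along the pathway was different. DFR and UGT78D2 stayed at 1 gene each, and the 15 other described UDP-glycosyltransferases were not added to the last step. Those 15 genes summed to 947.4 to 1050 TPM in WF and 1268 to 1374 TPM in RF. Their mean sum in RF was 1.32 times that in WF. The 4 chalcone synthases before CHI summed to 1543 ± 54.1 TPM in WF and 3907 ± 115 TPM in RF (SD, n = 3). The 5 genes described as chalcone isomerases or as members of that family summed to 716.2 ± 50.3 and 1273 ± 102 TPM. This family sum stood above DFR in both flesh types, but whether each of the 5 acts as the enzyme was not tested. The 2 LDOX genes summed to 113.8 ± 15.7 and 294.6 ± 47.1 TPM. The geometric mean ratio of RF to WF over the pairs was 2.53 for chalcone synthase, 1.78 for CHI, 2.35 for F3H, 2.16 for DFR, 2.58 for LDOX and 7.14 for UGT78D2. The lowest ratio in every pair was again that of the CHI family sum, and the highest that of UGT78D2. The latter was taken as 1 gene without its family, so these steps were not summed alike. These sums cover described genes only, and the descriptions came almost wholly from called genes.

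Genes that draw on the same intermediates were below the first 5 genes in mean TPM, but in WF not all were below UGT78D2. In RF the highest mean among them, 40.9 TPM, was below the UGT78D2 mean of 68.2 TPM. UGT78D2 ranged from 27.7 to 97.1 TPM there. Flavonol synthase MD15G1353800, which uses the product of F3H, was at 35.1 ± 4.03 TPM in WF and 31.5 ± 2.03 TPM in RF (SD, n = 3), and MD08G1168600 at 2.45 ± 0.45 and 2.79 ± 0.63 TPM. Anthocyanidin reductase MD01G1077800, which uses the product of LDOX, was at 31.1 ± 5.34 and 40.9 ± 2.49 TPM. This gene was named as such in the study's text. The 3 leucoanthocyanidin reductases, which use the product of DFR, had 0 to 7 reads per library and were not tested. Of the 4 genes of these branches that were tested, 1 was called higher and 0 lower, with a median log2 fold change of 0.24. The 1 called was MD01G1077800, near the threshold (log2 fold change 0.39, edgeR adjusted p = 0.0436). Anthocyanidin reductase MD05G1335600 was at means of 5.53 TPM in WF and 6.76 TPM in RF and was not called (edgeR adjusted p = 0.163). The study, which used DESeq2, reported neither of these reductases as differing between flesh types. Over all tested genes 6.08% were called higher and 4.68% lower, and nothing is read from so few genes.

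F3H and LDOX belong to the 2-oxoglutarate dependent oxygenases, and UGT78D2 to the family of UDP-glycosyltransferases. Of 12 other genes described as 2-oxoglutarate oxygenases 11 were tested, and 5 were called higher and 5 lower in RF (median log2 fold change 0.38). The most abundant, MD06G1124100, was at 1068 ± 57.7 TPM in WF and 866.7 ± 58.7 TPM in RF (SD, n = 3). Of 15 other UDP-glycosyltransferases 14 were called higher and 0 lower, with a median log2 fold change of 0.72. Their log2 fold changes ran from 0.225 to 3.67, so the largest was above the 2.96 of UGT78D2. It came from a gene with 0 to 49 reads per library, and the next, 2.82, from a gene with 14 to 220 reads. The most abundant of them, MD06G1122100, was at 622.9 ± 46.5 and 726.1 ± 24.6 TPM, above UGT78D2 in both flesh types, and was the 1 that was not called (edgeR adjusted p = 0.0923). Over all tested genes 6.08% were called higher and 4.68% lower, but these lists were drawn from called genes and their counts are not evidence of direction.

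Genes whose level over the 6 libraries was most like that of a member were sought among 1715 described genes with a mean of at least 100 counts, by Pearson's r on log2(CPM + 1). The 6 points fall into an RF and a WF group and were taken as pairs by letter. So r mostly reflects the difference between flesh types, and it is given as a description. For CHI MD07G1233400 the 3 nearest were a leucine-rich repeat protein kinase (MD13G1083700, r = 0.999), a protein of unknown function (MD03G1073700, r = 0.998) and the chalcone-flavanone isomerase family gene MD01G1167300 (r = 0.997). The last of these stood 4th among all 19496 genes with as many counts, described or not. For F3H MD15G1246200 they were cyclic nucleotide-gated channel 18 (MD09G1035800, r = 0.999), SOS3-interacting protein 1 (MD04G1171600) and an esterase/lipase/thioesterase family gene (MD17G1009900), the latter pair at r = 0.996. The channel gene had 8.73, 9.47 and 9.94 CPM in WF libraries A, B and C and 35.02, 27.5 and 35.3 CPM in RF libraries A, B and C, with the lower RF library B of this F3H.

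For F3H MD02G1132200 the nearest genes were IQ-domain 9 (MD05G1305200, r = 0.999), a cytosolic isocitrate dehydrogenase (MD17G1270700, r = 0.997) and a protein kinase (MD02G1246600, r = 0.995). IQ-domain 9 was also first for LDOX (r = 0.997), followed by dihydrosphingosine phosphate lyase (MD13G1122300, r = 0.997) and the kinase MD13G1083700 (r = 0.996) that was first for CHI. For DFR they were a WD40 repeat-like gene (MD06G1037700), acyl-activating enzyme 18 (MD03G1006300) and a PAS domain tyrosine kinase (MD13G1153300), each at r = 0.998. These neighbours differed less between flesh types than DFR did, with log2 fold changes of 0.37, 0.97 and 0.32.

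For UGT78D2 the nearest were a leucine-rich repeat protein kinase (MD04G1183100, r = 0.999), sugar transporter protein 7 (MD15G1158200, r = 0.998) and a RINT-1 / TIP-1 family gene (MD06G1190600, r = 0.997). The kinase had 33.5, 28.1 and 32.4 CPM in WF libraries A, B and C and 56.6, 41.04 and 54.7 CPM in RF libraries A, B and C. It was lowest in library B of both flesh types, as UGT78D2 was, over a smaller range. With the means of the flesh types removed, the nearest described genes were the same kinase (r = 0.997), KNOTTED1-like homeobox gene 3 (MD02G1012900) and an aldolase-type TIM barrel gene (MD10G1260600), the latter pair at r = 0.996. They stood 10th, 12th and 13th among all 19496 genes with as many counts, described or not. The homeobox gene was lower in RF, with a log2 fold change of -0.33. All were picked for deviations like those of UGT78D2, so their low library B follows from the choice.

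The estimated counts of the first 5 genes were not whole in any library, by up to 0.50 reads, and 54.3% to 60.7% of all tested genes were not whole beyond 0.01 reads. Estimated counts that are not whole arise where reads match several genes and are divided among them, and how many reads this touched is not known from the tables. The division between the F3H genes, and among the genes of the chalcone-flavanone isomerase family, is uncertain to that extent. UGT78D2 was whole in WF libraries A and C and off by 0.05 to 0.31 reads in the other 4.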

How the data were processed

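The authors sequenced poly(A)-selected, strand-marked libraries as paired reads. They deposited 1 table per library, in the format of salmon, with a length, an effective length, an estimated count and a TPM value per gene ID, in the form of the GDDH13 apple annotation. Not given in the sources used here: the quantifier's version, its settings and its use of strand. TPM values were used as deposited, with no pseudocount in ratios. Estimated counts as deposited need not be whole, and were rounded to whole numbers for tests. Red and white flesh were compared over all genes by edgeR's quasi-likelihood test (edgeR 4.0.16, R 4.3.3), with TMM, its standard expression filter, flesh type as the only term and Benjamini-Hochberg adjustment. DESeq2 1.42.0, the study's tool, was an alternative, as were the other settings listed at the end. The fit was tested on simulated data with the same dispersion for every gene and no letter effect. That setting differs from UGT78D2, so the simulation says nothing about the call of that gene.

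Same-letter red and white libraries deviated together, with correlations across genes of 0.35, 0.28 and 0.27 for letters A, B and C against -0.27 to 0.02 between letters. Deviations from a flesh-type mean cancel out within that flesh type. The low values between letters therefore follow largely from the same-letter ones and are no separate support. The labels state that RF and WF share their fruits, but not that a letter marks the same fruits in each. Letters were taken as pairs on the same-letter correlations. P-values and SDs measure only the spread between these fruits.

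The 6 genes, the lists and the rule for named genes were chosen with earlier results of these data known. The rule named the 6 genes, the most abundant genes of each list or any gene of a list of up to 7, and the 3 described genes nearest in pattern. Descriptions came from the study's list of called genes, held in part. The RefSeq table at hand gave 0 matches to the IDs, so no sequence or position is given, and chromosomes were read from the IDs.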

Additional observations from a re-analysis of the deposited data

How the results depend on the processing

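The log2 fold changes of the 6 genes kept their direction in all 13 alternative fits. CHI moved most relative to its spread between pairs, to 0.73 without RF replicate B. UGT78D2 ran from 2.61 to 3.34, and its adjusted p from 2.59e-26 to 0.071. It was not called with robust dispersion estimation, and the cause was not tested. The number of the 6 genes called was 6 in the other 12. In edgeR, pairing by letter (replicate block) raised the genes called higher from 1740 to 2981 and those called lower from 1340 to 2401, whereas DESeq2 with the replicate block called 1480 higher and 1030 lower; neither changed a call among the 6. Leaving out 1 library gave 939 to 1624 genes higher and 666 to 1523 lower, the lowest counts being those without WF replicate B (939 and 705) and without RF replicate A (941 and 666); 807 were lower without RF replicate C. The ratios between flesh types moved by less than the spread between pairs with CPM by either library scaling or a pseudocount of 1. Leaving out 1 pair gave 2.69 to 3.09 on the log2 scale for UGT78D2, 0.77 to 0.81 for CHI, 1.52 to 1.69 and 0.98 to 1.08 for the F3H genes of chromosomes 15 and 2, 1.08 to 1.15 for DFR and 1.44 to 1.61 for LDOX. CPM, which is not per length, moved the log2 ratio of F3H to CHI from 0.32 to 0.60 in WF and from 0.76 to 1.03 in RF, and that of DFR to F3H from 1.47 to 1.34 and from 1.36 to 1.23, by its construction. The log2 ratio of UGT78D2 to LDOX went from -3.19 to -2.58 in WF and from -1.90 to -1.29 in RF with CPM, and to -1.28 in RF without RF replicate B. With 3 pairs and 190 to 941 reads in library B, the level of UGT78D2 is the least certain.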
